A study of Mus musculus with 6 samples.

Results

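The transcripts described here encode 10 transcription regulators of the immediate early class in mouse gastrocnemius: the AP-1 subunits Fos, Fosb, Fosl2, Jun, Junb and Jund, the zinc finger factors Egr1 and Egr3, the nuclear regulator Ier2, and Myc. They were taken by gene symbol from a table of 43346 genes, in which each of the 10 had 1 row, and all 10 were among the 15583 genes abundant enough to test. RNA was sequenced from the muscle of 6-month-old male mice, all of which carried Vdr alleles with exon 3 between loxP sites (Vdr fl/fl) and a Cre recombinase that is activated by tamoxifen and driven in skeletal muscle by the human skeletal actin promoter (Tg(ACTA1-cre/Esr1*)2Kesr). In the knockout group, 3 mice were given tamoxifen by intraperitoneal injection (100 mg/kg, carried in corn oil with 10% ethanol) on 5 days, and in the vehicle group 3 mice received the carrier alone. Muscle was taken after glucose tolerance and strength tests, done 10 days after the injections, and each mouse gave 1 library. All 6 mice ate the same chow, with vitamin D3 at 3.4 IU/g and calcium at 0.81%. Effects of the deletion, of active Cre and of the drug cannot be told apart in this design, and mice given tamoxifen without Cre were not analysed here.

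Immediate early genes are switched on within minutes of a stimulus without the need for new protein, through factors such as SRF, the ternary complex factors and CREB that already sit at their promoters and are activated by MAP kinases and calcium. Their mRNAs and proteins are short-lived, so that the level in a piece of tissue follows recent signalling. FOS proteins bind DNA only as partners of JUN proteins, together forming AP-1, whereas EGR proteins bind guanine-rich sites alone and MYC binds with its partner MAX. In skeletal muscle this class responds to contraction, stretch, feeding, injury and stress hormones.

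Most of the factors had lower estimates in the knockout libraries, but none passed the test. Of the 10, 9 had a lower estimate, against 47.1% of all genes tested, and the median log2 fold change was -0.75, beside 0.021 over all genes tested. That median was -0.32 in a fit with the slow-twitch fibre markers as a covariate, described further on. With edgeR, 0 of the 10 had an adjusted p below 0.05, as was the case for 0 of all 15583 genes (0%), of which 626 were higher and 533 lower at an unadjusted p below 0.05. At an unadjusted p below 0.05, 4 of the 10 were lower (Fos, Junb, Ier2 and Myc) and 0 were higher, against 3.42% and 4.02% of all genes. DESeq2 called 1 of the 10, Myc, against 0.699% of all genes. In 3 of the 10, Junb, Ier2 and Myc, every knockout library lay below every vehicle library, as in 6.48% of all genes. Leaving out single libraries moved these counts, and the shares over all genes moved too. Lower at an unadjusted p below 0.05 were 6 factors without knockout replicate 1 (5.02% of all genes), 3 when knockout replicate 2 was dropped (2.43%) and 4 when knockout replicate 3 was dropped (2.83%). The count was 5 on dropping vehicle replicate 1 (3.59% of all genes), 2 on dropping vehicle replicate 2 (2.32%) and 5 on dropping vehicle replicate 3 (1.8%). With 5 libraries, knockout lay wholly below vehicle in 3 factors when either replicate 2 was dropped (10.2% of all genes for the knockout library and 10.1% for the vehicle library). It did so in 5 factors on dropping knockout replicate 1 (14.5%), knockout replicate 3 (10.4%), vehicle replicate 1 (12.7%) or vehicle replicate 3 (9.47%). These are whole muscle samples, in which fewer cells of a type and less RNA per cell cannot be told apart.

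The libraries held 30486874 to 39909535 counted reads. Vdr itself was scarce, with 52, 27 and 40 reads in knockout replicates 1, 2 and 3 and 46, 48 and 61 in vehicle replicates 1, 2 and 3 (log2 fold change -0.37, SE 0.37, edgeR adjusted p = 0.848), and exon 3 was not counted apart. Knockout replicate 2 stood apart from the rest. It had the lowest summed level of the 8 skeletal muscle markers, 82989 CPM (reads of a gene scaled to the TMM-adjusted library size) against 133663 to 189891 in the other libraries, and the highest summed level of the 10 slow-twitch fibre markers, 32826 CPM. The 8 markers (Acta1, Ckm, Myh4, Tnnt3, Mylpf, Pvalb, Actn3 and Des) include fast-fibre genes. Their sum therefore does not measure muscle content apart from fibre type. Knockout replicate 2 also held the lowest level of 8 of the 10 factors, and vehicle replicate 2 held the highest level of 9. Results are therefore also given with single libraries left out.

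**Figure D1:**
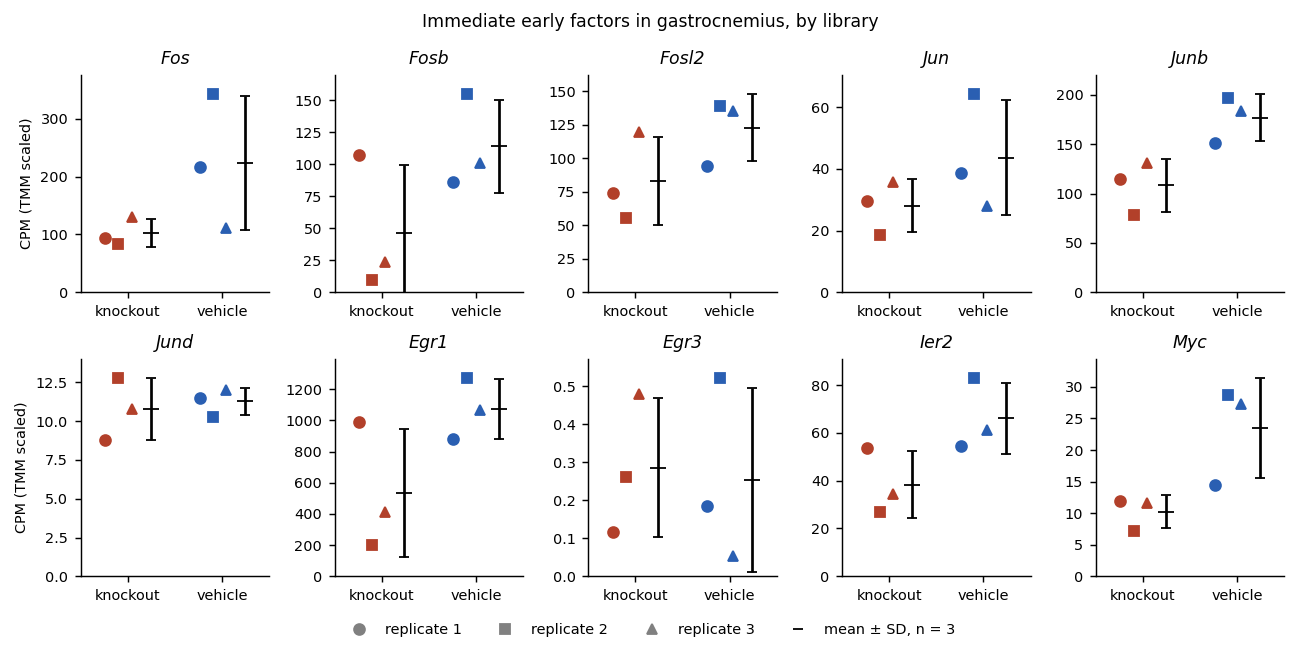
Level of each factor in CPM (linear axis from 0) in the 3 knockout libraries (red) and the 3 vehicle libraries (blue); bars are the mean ± SD of 3 libraries, and the bar of Fosb is drawn down to 0 only. Junb, Ier2 and Myc show no overlap between the groups, while in Fosb and Egr1 knockout replicate 1 lies among the vehicle libraries.

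The sequences upstream of Fos, Fosb, Junb and Jund are shown because these genes contrast in spread and separation: Fosb had the widest spread, Junb had separate groups, Fos is the reference member and Jund hardly varied. RefSeq (GRCm38.p6) gave a promoter for 6 of the 10, namely these 4, Jun and Fosl2, each with the same start as in the deposited table. The 150 bases before the start are printed 5′ to 3′ on the strand of the gene, with matches in capitals. They come from chr12:85473740-85473889 on the plus strand for Fos, chr7:19310046-19310195 on the minus strand for Fosb, chr8:84978749-84978898 on the minus strand for Junb and chr8:70697589-70697738 on the plus strand for Jund.
Fos: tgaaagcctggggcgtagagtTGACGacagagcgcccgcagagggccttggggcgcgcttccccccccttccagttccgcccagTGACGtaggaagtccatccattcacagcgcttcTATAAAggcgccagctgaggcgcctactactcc
Fosb: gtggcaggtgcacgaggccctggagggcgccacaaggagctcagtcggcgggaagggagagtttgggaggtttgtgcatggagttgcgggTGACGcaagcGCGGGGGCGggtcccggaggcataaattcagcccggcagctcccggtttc
Junb: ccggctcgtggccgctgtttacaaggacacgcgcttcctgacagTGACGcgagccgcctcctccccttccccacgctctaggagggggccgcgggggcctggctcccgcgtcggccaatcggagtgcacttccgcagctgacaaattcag
Jund: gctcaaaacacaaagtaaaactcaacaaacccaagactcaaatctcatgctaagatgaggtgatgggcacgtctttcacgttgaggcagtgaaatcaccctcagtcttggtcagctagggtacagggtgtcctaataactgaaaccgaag
The motifs searched were TGACG, the core of the cyclic AMP response element, the full element TGACGTCA, which holds that core, the AP-1 site TGANTCA, the EGR site GCGNGGGCG, the E box CACGTG that MYC and MAX can bind, the CArG box bound by SRF, and the TATA box TATAAA. All were searched on both strands except the TATA box, which was searched on the strand of the gene. TGACG was found in 3 of the 6 promoters, at 129 and 66 bases before the start of Fos, 60 before that of Fosb and 106 before that of Junb, and in 13.3% of all 32851 promoter windows of this length. The EGR site was found 50 bases before the start of Fosb and 79 before that of Fosl2, and in 3.81% of all windows. Fos had a TATA box 33 bases before its start, as did 4.84% of windows in some position. None of the searched motifs was found in this window of Jun or Jund. For Jund the window depends on the start used: the deposited table and RefSeq start the gene at 70697739, whereas GENCODE M21 starts it at 70698949, and no window before that start was searched. The window of Jund had a GC content of 45.3%, against 58.0% to 68.7% in the other 5. The full element, the AP-1 site, the E box and the CArG box were found in none of the 6, and in 1.36%, 4.24%, 4.30% and 0.916% of all windows. Bases further upstream, and sequences that differ from these patterns, were not searched, so sites there would be missed. These matches are descriptions of letters, not of bound sites.

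Fos encodes the founding FOS subunit of AP-1, whose induction is the classic sign of recent signalling in a cell. Its level was 93.8, 83.7 and 130 CPM in knockout replicates 1, 2 and 3, and 216, 343 and 111 CPM in vehicle replicates 1, 2 and 3. All knockout libraries were below vehicle replicates 1 and 2, while vehicle replicate 3 lay under knockout replicate 3, so the groups overlapped. Group means were 103 ± 24.5 and 223 ± 116 CPM (SD, n = 3 each), a log2 fold change of -1.12 (SE 0.37, edgeR adjusted p = 0.628). Without vehicle replicate 2 the estimate was -0.68.

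Fosb encodes a close relative of FOS that accumulates, in a truncated splice form, after repeated stimulation; the gene counts do not separate the forms. Its level was 107, 9.52 and 23.3 CPM in the knockout replicates and 86.2, 155 and 101 CPM in the vehicle replicates. Knockout replicate 1 was above 2 of the 3 vehicle libraries, while knockout replicates 2 and 3 were far below all of them. The estimate was -1.29 (SE 0.77, edgeR adjusted p = 0.744) with all libraries and -2.80 (adjusted p = 0.0655) without knockout replicate 1, and it was -0.80 without knockout replicate 2. No other factor varied so widely, with the highest library at 16.3 times the lowest.

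Fosl2 encodes FRA2, a FOS-related subunit that lacks the strong activation domain of FOS and is made more steadily. It was measured at 73.6, 55.3 and 119 CPM in the knockout replicates and 94.0, 139 and 135 CPM in the vehicle replicates. Only knockout replicate 3 reached into the vehicle range. The log2 fold change was -0.57 (SE 0.28, edgeR adjusted p = 0.693), with -0.93 without knockout replicate 3 and -0.35 without knockout replicate 2.

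Junb, a JUN subunit that muscle fibres express in the resting state and that has been tied to the upkeep of muscle mass, had the highest mean level per length of the 6 AP-1 transcripts. Its level was 115, 78.7 and 131 CPM in the knockout replicates and 151, 197 and 183 CPM in the vehicle replicates. The groups did not overlap, with a gap between knockout replicate 3 and vehicle replicate 1. Group means were 108 ± 26.7 and 177 ± 23.5 CPM (SD, n = 3 each), a log2 fold change of -0.71 with SE 0.22 and an edgeR adjusted p = 0.611 (95% interval -1.21 to -0.22).

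Jun, which encodes the strongest transcriptional activator of the JUN subunits, was at 29.7, 18.7 and 35.6 CPM in the knockout replicates and 38.6, 64.2 and 28.0 CPM in the vehicle replicates. Vehicle replicate 2 was the highest and knockout replicate 2 the lowest, and the other 4 libraries were interleaved. The log2 fold change was -0.64 (SE 0.33, edgeR adjusted p = 0.700), and -0.26 without vehicle replicate 2. The antisense gene Junos shares 689 bases of its span with Jun, where GENCODE M21 places a Junos exon from 95051534 to 95051765. With the strand setting unknown, reads in the shared stretch may be missing from the count of Jun. Junos itself had 94 to 247 reads.

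Jund, the JUN subunit that is made without a stimulus and opposes growth in many cells, differed from the other AP-1 transcripts in showing little spread. It was at 8.81, 12.8 and 10.8 CPM in the knockout replicates and 11.5, 10.3 and 12.0 CPM in the vehicle replicates. The estimate of -0.063 with SE 0.20 (edgeR adjusted p = 0.962, 95% interval -0.50 to 0.37) turned to 0.016 and 0.019 on the FPKM scales and to 0.058 without knockout replicate 1. That interval holds fold changes of 0.706 to 1.30. Another gene model, Gm11175, covers 543 of the 2878 bases of Jund, on the opposite strand in GENCODE M21, and had 0 to 6 reads, so reads in that stretch may be missing from the count of Jund.

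**Figure D2:**
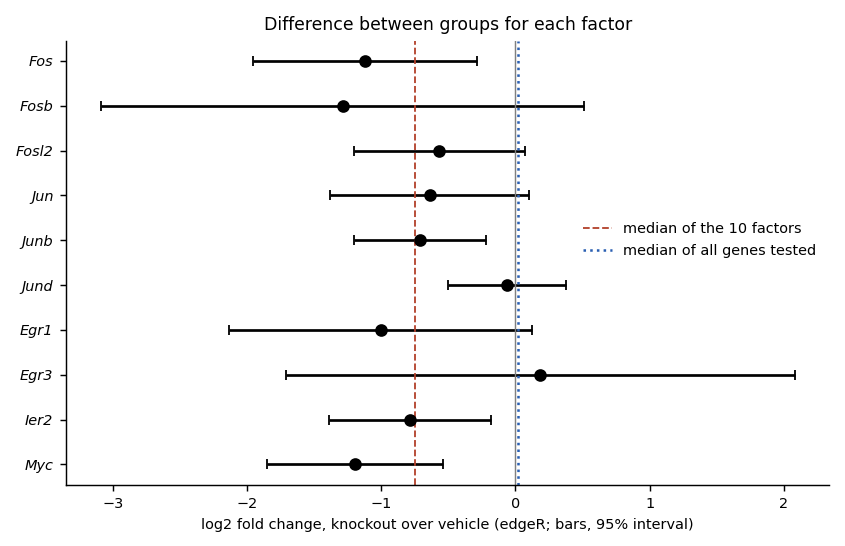
Log2 fold change of knockout over vehicle for each factor, with its 95% interval from edgeR; the dashed line is the median of the 10 factors and the dotted line that of all genes tested. The intervals of Fos, Junb, Ier2 and Myc end below 0 without adjustment for multiple tests, and those of Fosb and Egr3 are the widest.

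Egr1, a zinc finger factor induced by serum, stretch and contraction, was the most abundant of the 10. Its level was 989, 201 and 413 CPM in the knockout replicates and 883, 1269 and 1065 CPM in the vehicle replicates. As with Fosb, knockout replicate 1 lay inside the vehicle range and knockout replicates 2 and 3 lay below it. Group means were 534 ± 408 and 1072 ± 193 CPM (SD, n = 3 each), a log2 fold change of -1.01 (SE 0.50, edgeR adjusted p = 0.693). The estimate was -1.81 without knockout replicate 1 (adjusted p = 0.133) and -0.61 without knockout replicate 2.

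Egr3, the EGR family member that muscle spindles need for their development, was close to the limit of detection in this whole muscle. The knockout libraries held 4, 9 and 18 reads and the vehicle libraries 6, 19 and 2, where a count of 3 was taken as the floor. The groups overlapped fully, and the estimate of 0.18 (SE 0.85, edgeR adjusted p = 0.974) ranged from -0.42 to 1.27 as single libraries were left out. The 95% interval, -1.71 to 2.08 on the log2 scale, spans differences of several-fold in either direction.

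Ier2, a small nuclear regulator of the same early class, was at 53.8, 26.9 and 34.4 CPM in the knockout replicates and 54.5, 82.8 and 61.1 CPM in the vehicle replicates. The groups did not overlap, but knockout replicate 1 lay just under vehicle replicate 1. The fitted difference was -0.79 on the log2 scale with SE 0.27 (edgeR adjusted p = 0.628, 95% interval -1.39 to -0.18), and -1.12 without knockout replicate 1.

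Myc, which drives growth and ribosome production, was the factor with the smallest p. Its level was 12.0, 7.23 and 11.6 CPM in the knockout replicates and 14.4, 28.8 and 27.2 CPM in the vehicle replicates. The groups did not overlap, and vehicle replicates 2 and 3 were at over 27 CPM while vehicle replicate 1 was close to the knockout libraries. Group means were 10.3 ± 2.62 and 23.5 ± 7.87 CPM (SD, n = 3 each), a log2 fold change of -1.20 with SE 0.29 (edgeR adjusted p = 0.526, 95% interval -1.85 to -0.54). In DESeq2 the estimate was -1.22 (adjusted p = 0.0258), and with the slow-twitch covariate in edgeR it was -0.43. With single libraries left out in edgeR it ran from -1.45 to -0.999, with adjusted p values from 0.165 to 0.991.

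**Figure D3:**
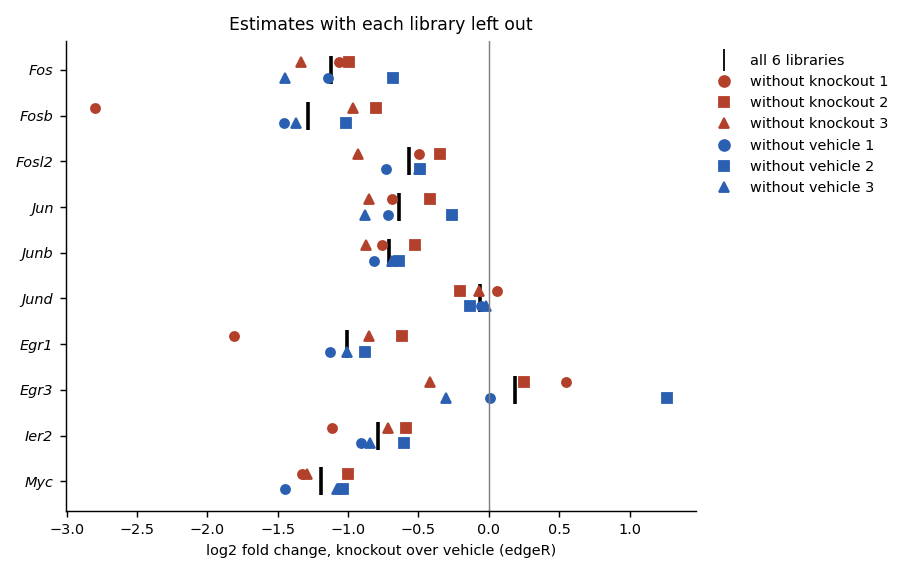
Log2 fold change of each factor with all 6 libraries (black bar) and with 1 library left out (red symbols, a knockout library; blue symbols, a vehicle library). Fosb and Egr1 moved furthest when knockout replicate 1 was left out, to -2.80 and -1.81, while the estimates of Myc stayed between -1.45 and -0.999.

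The slow-twitch marker content differed among the same libraries. The summed level of the 10 slow-twitch markers was 6201, 32826 and 10352 CPM in knockout replicates 1, 2 and 3 and 10164, 1483 and 1233 CPM in vehicle replicates 1, 2 and 3. With the mean of these markers as a covariate in edgeR, the median estimate of the 10 factors was -0.32, with Fos at -1.03, Fosb at -0.43, Myc at -0.43, Junb at -0.35, Jun at -0.31, Ier2 at -0.32, Egr1 at -0.32 and Fosl2 at -0.077. With the mean of the macrophage markers as a covariate the median was -0.68. Fosb was then at -0.82, Egr1 at -0.54 and Ier2 at -0.52, all smaller than without it, while Fos was at -1.38. All 10 slow-twitch and all 9 tested macrophage markers had higher estimates in knockout, so both covariates lean with the group. These fits therefore cannot separate fibre type or macrophage content from group. The part of fibre type in the differences was not tested. Macrophage markers summed to 47.1 to 142 CPM in knockout and 37.7 to 66.9 CPM in vehicle libraries over the 9 of 10 found in the table, none at 0 throughout.

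Other cell types that hold immediate early transcripts were present in every library. Smooth muscle markers summed to 211 to 268 CPM in knockout and 291 to 355 CPM in vehicle libraries over 6 genes, of which 1 had a higher estimate in knockout. Endothelial markers ran from 285 to 321 CPM and from 234 to 330 CPM over 8 genes. Fibroblast markers ran from 587 to 1577 CPM and from 624 to 823 CPM over 8 genes, all 8 with a higher estimate in knockout. Schwann cell markers ran from 66.3 to 107 CPM and from 92.1 to 171 CPM over 7 genes, none of them with a higher estimate in knockout. Neutrophil markers reached 41.5 CPM in knockout replicate 2 and 36.0 CPM in vehicle replicate 2, against 3.65 to 9.80 CPM in the others. Blood markers ran from 531 to 3184 CPM and from 604 to 3605 CPM over 5 genes. Adipocyte markers ran from 54.9 to 208 CPM and from 23.7 to 68.5 CPM over 6 genes, and satellite cell markers from 21.5 to 26.3 CPM and from 20.8 to 22.9 CPM over 6 genes. Lymphocyte markers summed to at most 0.640 CPM in every library, with 1 of 8 at 0 throughout. Estimates were higher in knockout for all 10 slow-twitch, all 9 macrophage and all 6 adipocyte markers tested, and for 1 of 8 skeletal muscle markers. They were higher for 6 of 8 endothelial, 5 of 6 satellite cell, 4 of 5 neutrophil and 2 of 5 blood markers tested. Over all genes tested, 8246 of 15583 had a higher estimate. No marker gene passed the edgeR threshold, and the part of these cell types in the factors' levels was not tested.

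The levels of the factors relative to one another can be compared per length, in FPKM, the deposited values scaled by gene length and library total. Egr1 averaged 174 FPKM over the 6 libraries and ranked 311 among the genes tested. Junb followed at 76.7, Fos at 68.7, Ier2 at 33.7, Fosb at 20.7, Fosl2 at 17.5, Jun at 11.1, Myc at 6.00, Jund at 3.86 and Egr3 at 0.194 FPKM. The ranges over libraries of neighbours in this order overlapped in every pair but the last: Jund did not go below 2.79 FPKM and Egr3 did not go above 0.361. Compared within each library, Egr1 over Junb, Fos over Ier2, Ier2 over Fosb and Fosl2 over Jun held throughout. Fos was above Junb in vehicle replicates 1 (88.4 against 79.0 FPKM) and 2 (143 against 105 FPKM). The order also turned for Fosb and Fosl2 in knockout replicates 2 and 3, Jun and Myc in vehicle replicate 3, and Myc and Jund in knockout replicate 2. Egr1, Junb and Fos were thus in the upper tail of muscle transcripts, and Egr3 ranked 14477. The FPKM of Jund may be too low. It divides by 2878 bases from position 70697739, whereas GENCODE M21 starts the gene at 70698949. Reads in the stretch shared with Gm11175 may also be missing.

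Within the FOS family, the pool was made up differently from library to library. Fos held 48.7%, 74.6% and 67.3% of the summed FPKM of Fos, Fosb, Fosl1 and Fosl2 in the knockout replicates and 69.6%, 68.6% and 47.1% in the vehicle replicates. The share of Fosb was 34.9%, 5.32% and 7.54% in the knockout replicates and 17.4%, 19.4% and 26.9% in the vehicle replicates, so knockout replicate 1 had the highest Fosb share of all and the other knockout libraries the lowest. Fosl2 took 15.4% to 24.8% in knockout and 11.2% to 23.1% in vehicle libraries. In the JUN family the makeup was steadier, with Junb at 80.6% to 83.5% in knockout and 81.9% to 88.5% in vehicle libraries. Jund held 4.09% to 8.36% in knockout and 2.74% to 4.07% in vehicle libraries. Its share was thus higher in every knockout library, by a small margin at the nearest point. The log2 fold change of Jund itself was -0.063, against -0.71 for Junb and -0.64 for Jun. Because the FPKM of Jund may be too low, as said above, its share may be too low and those of Junb and Jun too high. These shares are descriptions and were not tested.

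**Figure D4:**
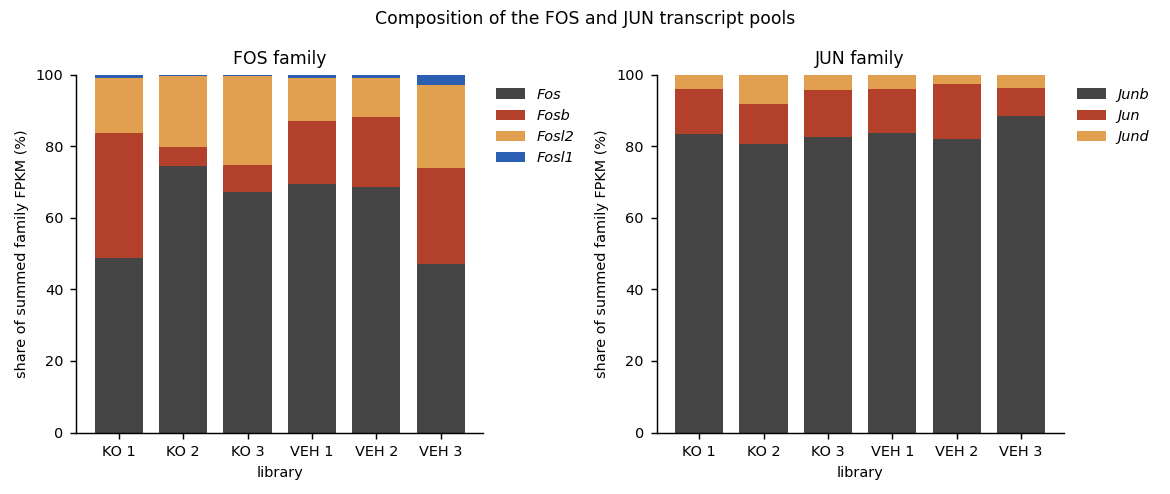
Share of the summed FPKM of the FOS family (left) and the JUN family (right) held by each gene in each library (KO, knockout; VEH, vehicle; the number is the replicate). Fosb makes up 34.9% of the FOS pool in knockout replicate 1 but 5.32% and 7.54% in knockout replicates 2 and 3, and Junb makes up over 80% of the JUN pool in every library. The share of Jund may be too low, and those of Junb and Jun too high, because the length and reads of Jund are uncertain.

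Within groups, most of the factors varied more than other genes. The pooled SD of log2 CPM within groups was above the median of all genes tested, 0.32, in 8 of the 10. Fosb, at 1.28, was at percentile 98.5 of all genes, Egr3, at 1.03, at percentile 96.3 and Egr1, at 0.83, at percentile 92.7. Junb, at 0.30, and Jund, at 0.20, were at percentiles 47.7 and 25.6. The factors with the widest spread were not those whose groups were separate, but a wide spread by itself makes separate groups less likely. No conclusion is drawn from this. Egr3 had 2 to 19 reads in a library, so its spread includes counting noise.

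The factors also differed in how they ranked the libraries. As a measure of likeness, the root mean square difference between centred log2 CPM profiles over the 6 libraries was taken. Fosl2 and Junb were the closest pair at 0.18, followed by Junb and Ier2 at 0.26 and by Fos and Jun at 0.29. Fosb and Egr3 were the farthest apart at 1.86. Among 11443 other named genes with a mean of at least 1 CPM, those most like Fos were Cldn19, a tight junction claudin (0.17), the insulin receptor substrate Irs2 (0.26) and the small nucleolar RNA Snora28 (0.27), where the median gene was at 0.74. Nearest to Egr1 came the adhesion molecule Cadm1 (0.13), Amd1, the decarboxylase that supplies polyamine synthesis (0.17), and Amd2 (0.18), a near-identical copy of Amd1 whose reads can be misassigned, with the median gene at 0.97. Junb was most closely matched by Pik3ip1, an inhibitor of the lipid kinase PI3K (0.067), the growth factor gene Pdgfa (0.073) and the smooth muscle actin gene Acta2 (0.079), beside a median of 0.50. For Myc the nearest were the exchange factor gene Tiam1 (0.13), Kazald1 (0.15) and Smtnl2 (0.16), beside a median of 0.74. With 6 libraries such likeness is a description of these samples.

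AU-rich pentamers in the 3′ untranslated end are a known feature of short-lived early mRNAs, bound by the decay factor encoded by Zfp36. In the last 300 bases of the untranslated end (GENCODE M21, 1 transcript a gene), the pentamer ATTTA, searched on the strand of the mRNA, was found in 7 of the 10, against 45.4% of 15578 genes. At least 3 pentamers were found in Fos and Jun, against 5.44% of genes, and the nonamer TTATTTATT, which overlaps the pentamer, was found in Fos alone, against 2.28%. The windows of Fosb, Fosl2 and Ier2 held no pentamer. Over the whole 3′ untranslated end, Fosl2 had 8 pentamers and 1 nonamer in 4653 bases, Egr3 had 7 pentamers in 2645 bases, Fosb had 1 in 2145 bases and Ier2 had none. Sites of Fos (chr12:85477102-85477130, plus strand), Jun (chr4:95049207-95049235, minus strand) and Myc (chr15:61990135-61990163, plus strand) are printed with the pentamers in capitals, to set the dense site of Fos beside the others.
Fos: gtgttttcaATTTATTTAttaagatggat
Jun: tcATTTAtaatcataggaaagATTTAgta
Myc: taacagatttgtATTTAattgttttttta

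The genes differed in structure. For Jun, Junb, Jund and Ier2, 4 of the 10, the listed gene length equalled the span on the chromosome, that is, the gene has no intron in the deposited annotation, as was so for 12.5% of all genes tested. Fosl2 had the longest span, 21360 bases on chromosome 5 from 32136472 to 32157831. Fos (ENSMUSG00000021250) lies on chromosome 12 from 85473890 to 85477273, Fosb (ENSMUSG00000003545) on chromosome 7 from 19302721 to 19310045 and Jun (ENSMUSG00000052684) on chromosome 4 from 95049034 to 95052222. Junb (ENSMUSG00000052837) and Jund (ENSMUSG00000071076) are both on chromosome 8, from 84976909 to 84978748 and from 70697739 to 70700616, and Ier2 is on the same chromosome from 84661331 to 84662852. Egr1 lies on chromosome 18 from 34859823 to 34864984, Egr3 on chromosome 14 from 70077445 to 70080157 and Myc on chromosome 15 from 61985341 to 61990374, all in mm10.

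Among the 5 tested other AP-1 genes, 2 had knockout wholly below vehicle, against 6.48% of all genes tested. Of 3 tested genes of the other EGR and corepressor list, 0 had separate groups. Fosl1, which encodes the FOS-related subunit FRA1, was at 1.34, 0.260 and 0.561 CPM in the knockout replicates and 1.95, 3.07 and 5.09 CPM in the vehicle replicates. These groups did not overlap, and the log2 fold change was -2.23 (SE 0.57, edgeR adjusted p = 0.526), with -1.13 under the slow-twitch covariate and -1.44 under the macrophage covariate. Atf3, a stress-induced partner of JUN, was at 85.8 ± 10.1 CPM in knockout and 248 ± 27.5 CPM in vehicle libraries (SD, n = 3 each; log2 fold change -1.53, SE 0.18, edgeR adjusted p = 0.058). No gene tested had a smaller adjusted p in edgeR, where 7 genes had one below 0.1, and adjusted values can be shared between genes. The estimate of Atf3 was -1.55 under the slow-twitch covariate and -1.48 under the macrophage covariate. Of the 8 other AP-1 genes listed 5 were tested, and 4 of them had a lower estimate, against 47.1% of all genes tested. The 2 that were lower at an unadjusted edgeR p below 0.05, against 3.42% of all genes, were Fosl1 and Atf3. This list was chosen with earlier results of these data known. Atf2 was at -0.067 (SE 0.16). Atf7, named after its values were seen, was at 47.8 and 49.9 CPM in the knockout and vehicle means, with overlapping groups. Egr2, the EGR factor of Schwann cells, had 29.9, 3.96 and 3.61 CPM in the knockout replicates and 12.7, 21.4 and 20.5 CPM in the vehicle replicates, with knockout replicate 1 the highest of all 6 libraries and far above the other knockout libraries. Its estimate was -0.55 (SE 0.77, edgeR adjusted p = 0.897) with all libraries and -2.27 without knockout replicate 1 (adjusted p = 0.0295), where 0.149% of the genes tested were called. The corepressors of EGR, Nab1 and Nab2, were at 0.28 (SE 0.20) and 0.043 (SE 0.32).

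Upstream of the factors little separated the groups. Of 12 transcription factors that act on early genes, 6 had a higher and 6 a lower estimate, with a median of -0.054 and 0 called by edgeR. Crem, whose short forms repress cyclic AMP responses, had the smallest p at -0.73 (SE 0.21, edgeR adjusted p = 0.589). The ternary complex factor genes Elk4 and Elk3 were at -0.34 (SE 0.16) and 0.45 (SE 0.24). Among 25 tested genes of the MAP kinase cascades, 19 had a lower and 6 a higher estimate, with a median of -0.074 and 0 called. Over all genes tested, 47.1% had a lower estimate. The kinase gene Rps6ka5, whose product phosphorylates CREB and histone H3 at early genes, was at 0.78 (SE 0.20, edgeR adjusted p = 0.526), Rps6ka1 at -0.76 (SE 0.22) and Map2k1 at -0.39 (SE 0.19).

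Estimates of partners and turnover factors went both ways, where 47.1% of all genes tested had a lower estimate. Of 10 tested genes of the MYC and MAX network, 6 had a higher and 4 a lower estimate, 0 called. Mxd1 and Mnt, both antagonists of MYC, were at -0.87 (SE 0.33) and -0.77 (SE 0.35), and Mlxipl, a glucose-responsive relative, at 0.31 (SE 0.17). Among 12 tested genes of mRNA and protein turnover, 8 had a lower estimate and 0 were called, with Zfp36 at -0.59 (SE 0.23), the ubiquitin ligase gene Fbxw7, which marks MYC and JUN for degradation, at -0.29 (SE 0.15) and Rfwd2, a ubiquitin ligase of JUN, at -0.30 (SE 0.21).

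Textbook targets of the factors did not share a direction. Of 14 tested AP-1 targets, 8 had a lower and 6 a higher estimate, median -0.14, with 0 called. Plaur, the urokinase receptor, was at -1.27 (SE 0.43), Timp1, a metalloproteinase inhibitor, at 1.69 (SE 0.78), and the chemokine Ccl2 at -3.67 (SE 1.65), a value that was 0.34 without vehicle replicate 2. The groups of Timp1 overlapped, and its estimate was 0.73 with the slow-twitch covariate and 0.069 with the macrophage covariate. With the same covariates Plaur was at -0.89 and -1.68. Of 10 tested EGR targets, 5 were lower and 5 higher in estimate, median -0.014, with 0 called; Pdgfa was at -0.75 (SE 0.25) and the growth factor gene Fgf2 at 1.14 (SE 0.42). Of 24 MYC targets, most of them genes of ribosome production, 15 were lower and 9 higher in estimate, median -0.075, with 0 called. Gnl3 was at -0.49 (SE 0.20), Odc1, the first enzyme of polyamine synthesis, at -0.59 (SE 0.33) and Nolc1 at -0.34 (SE 0.20).

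Immediate early genes outside the 10 factors also mostly had lower estimates. Of 33 listed and tested, 30 were lower in estimate, the median was -0.60, and 16 were lower and 0 higher at an unadjusted p below 0.05, with 0 called by edgeR. Over all genes tested 3.42% were lower and 4.02% higher at that p. In 10 of the 33 the knockout libraries all lay below the vehicle libraries, against 6.48% of all genes. Gadd45b, a stress and growth arrest gene, was at 42.2 ± 6.42 CPM in knockout and 86.6 ± 23.5 CPM in vehicle libraries (SD, n = 3 each; log2 fold change -1.04, SE 0.22, edgeR adjusted p = 0.408). The MAP kinase phosphatase gene Dusp5 was at -1.72 (SE 0.37) and the kinase gene Plk3 at -1.40 (SE 0.33). With the slow-twitch covariate Gadd45b was at -0.64, Dusp5 at -0.99 and Plk3 at -0.65. The exceptions, named after their values were seen, were Ctgf and Cyr61, targets of mechanical and YAP signalling, and Dusp6, at 0.29, 0.060 and 0.046. Over the 10 factors the mean of centred log2 CPM was -0.11, -0.90 and -0.17 in the knockout replicates and 0.19, 0.83 and 0.17 in the vehicle replicates. Over the 33 other genes it was -0.23, -0.54 and -0.18 and 0.062, 0.49 and 0.40, with knockout replicate 2 lowest and vehicle replicate 2 highest in both.

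**Figure D5:**
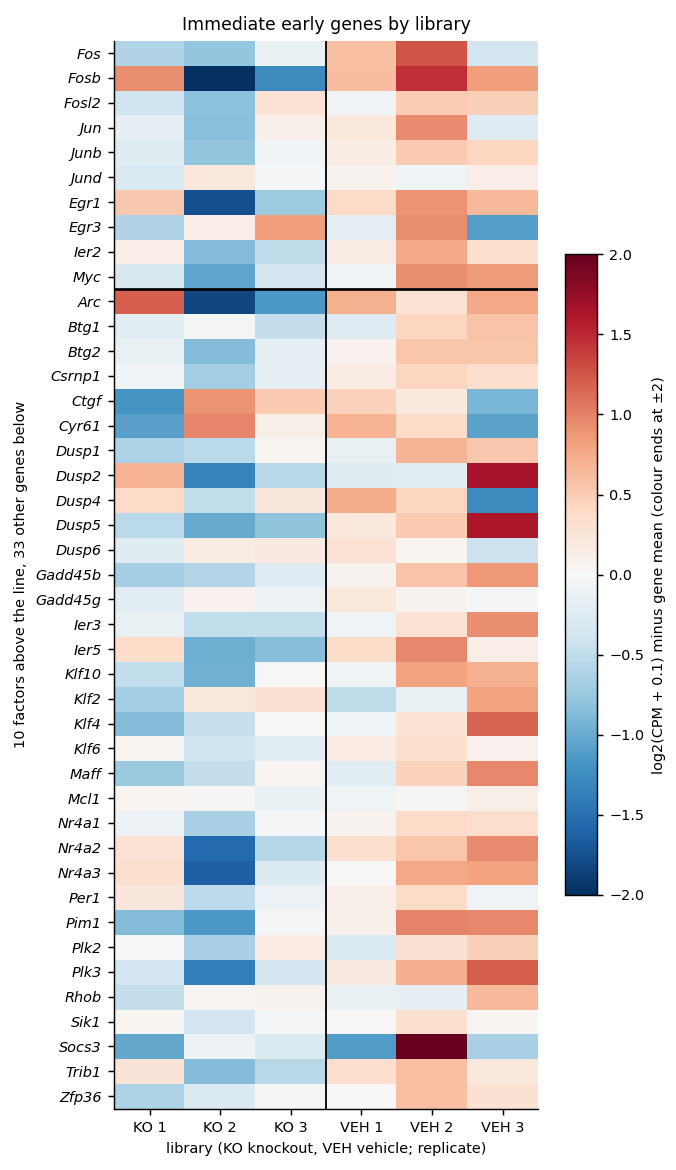
Level of the 10 factors (above the line) and of the 33 other immediate early genes (below) in each library, as log2(CPM + 0.1) minus the mean of the gene over the 6 libraries (red, higher; blue, lower; colours end at 2 either way). Most rows are bluer in the 3 knockout columns, with 30 of 33 lower in estimate below the line, and Fosb, Egr1 and Arc are red in knockout replicate 1 and blue in knockout replicates 2 and 3.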

How the data were processed

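Libraries made from whole gastrocnemius with a stranded mRNA kit from Illumina, per the labels' protocols, numbered 6, 3 knockout and 3 vehicle, grouped by the labelled phenotype. The tools named, per the submitters' processing notes, are featureCounts and Subread 1.5.1, the aligner STAR 2.6.1c and bcl2fastq, with build mm10. The sources used here give neither annotation release nor strand setting. The deposited counts are whole reads per gene. Library totals ran from 30486874 to 39909535. Dividing a count by the library total and by the gene length plus 1 base returned the deposited FPKM to within 0.1%, for every FPKM above 0.01.

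Counts were tested in R 4.3.3 with edgeR 4.0.16 (filterByExpr with minimum count 10, TMM, robust quasi-likelihood, two-sided), adjusted by Benjamini-Hochberg over 15583 genes at a threshold of 0.05. Standard errors derive from the F statistic. The common biological coefficient of variation was 0.270. The pipeline was tested on simulated data. Alternatives used DESeq2 1.42.0, limma 3.58.1, other scalings, filters and covariates, and left out each library. Each replicate is a separate mouse, so p values measure the spread between mice. The 10 factors, gene lists and rule for named genes (up to 3 of smallest p per list, and the 3 genes most like Fos, Egr1, Junb and Myc) were chosen with earlier results of these data known. One gene that this rule names is not reported here.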

Additional observations from a re-analysis of the deposited data

How the results depend on the processing

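The 18 alternatives kept Fos, Fosb, Fosl2, Jun, Junb, Egr1, Ier2 and Myc below 0 wherever they gave an estimate, and 0 factors passed in any but the DESeq2 Wald test, which called 1 (Myc). The number of genes called, 0 with edgeR, was 4 with DESeq2 size factors in edgeR, 109 with DESeq2, 29 without a low-count filter and 7 at an adjusted p below 0.1, and ran from 0 to 24 with single libraries left out. The median of the factors was -0.32 with the slow-twitch covariate and ran from -0.91 to -0.56 with single libraries left out. The sign of Jund turned on the FPKM scales (0.016 with 0.1 added and 0.019 with 1 added) and ran from -0.20 to 0.058 with libraries left out. Egr3 was -1.04 with the macrophage covariate and ran from -0.42 to 1.27 with libraries left out. Of the pathway genes, Atf2 was 0.030 and 0.021 on the FPKM scales and -0.14 to 0.019 with libraries left out, Egr2 was 0.38 and 0.051 with the slow-twitch and macrophage covariates and -2.27 to -0.11 with libraries left out, and with libraries left out Nab2 ran from -0.22 to 0.26 and Ccl2 from -4.33 to 0.34. With the slow-twitch covariate Mnt was 0.060, Rfwd2 0.068, Odc1 0.065 and Nolc1 0.033. Of the 30 pathway genes chosen by rule, 19 had an estimate smaller by over 1.5 times, or of the other sign, with the slow-twitch covariate and 12 with the macrophage covariate; of the 10 factors, 7 and 4 did. The cause was not tested. DESeq2 called 6 listed genes outside the factors: Atf3, Dusp5, Fosl1, Gadd45b, Pim1 and Plk3. Over all genes it called 109 of 15583 (0.699%). Atf3 and Fosl1 were among 5 tested other AP-1 genes, and the rest among 33 other immediate early genes. These lists were chosen with earlier results of these data known. No paired analysis was possible because the labels give no replicate numbers that link the groups. With 3 mice a group, the 95% intervals of all factors but Fos, Junb, Ier2 and Myc included 0, and for Egr3 the read number was a further limit.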
